A study of Mus musculus with 72 samples.

Results

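ART558, an inhibitor of the DNA polymerase Polθ, was tested without aphidicolin on the joining of a single Cas9-made double-strand break (DSB) on mouse chromosome 12. The libraries were chosen by their labels, as those of the inhibitor collection with the chromosome 12 bait and ART558 or DMSO alone, and 5 of the series' 72 samples met this rule. All came from the neural progenitor line Nxp010, derived from embryonic stem cells and of the genotype NestinCre+ Xrcc4-/- p53-/-, so that the controls lack Xrcc4 and p53 as well. The 3 ART558 libraries were exposed to 5 µM for 72 h and then 2.5 µM for 24 h, and the 2 DMSO libraries received the solvent. The labels do not say whether libraries of a group came from separate cultures, and the study describes such repeats in one place as technical and in another as biological. SDs and p values therefore measure only the spread between these libraries, which may be technical, and the results are those of 1 line. Junction data cannot be checked for markers of the cell type.

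XRCC4 is a core factor of classical non-homologous end joining, the route that seals most DSBs with little change to the ends. Without it, cells turn to alternative end joining, in which Polθ aligns resected ends at short stretches of identical sequence (micro-homology) and extends them. Polθ is also known for leaving insertions copied from nearby DNA when its first alignment fails. In LAM-HTGTS, a primer beside the Cas9 cut (the bait) reads across each junction into the prey, which is the genomic end that the bait end was joined to. The method gives the composition of the recovered junctions and not the number of junctions per cell, so that a class may gain share because others lose it.

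The sequences that define the break are given so that the joints below can be placed on them. The guide lies on the plus strand at chr12:12994038-12994060 of GRCm38/mm10, with its PAM in capitals. The bait runs from the primer, in capitals, to the last base before the cut at chr12:12993923-12994054. The first bases past the cut lie at chr12:12994055-12994134 and hold the PAM, again in capitals.
Guide: attccgccaaccctcgagatAGG
Bait: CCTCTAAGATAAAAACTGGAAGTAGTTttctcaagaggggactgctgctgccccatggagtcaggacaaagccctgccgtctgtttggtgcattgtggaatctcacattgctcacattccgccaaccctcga
Past the cut: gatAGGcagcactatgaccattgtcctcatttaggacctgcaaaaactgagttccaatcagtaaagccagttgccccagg
The cut falls in exon 5 of the lincRNA gene Gm35208, which GENCODE places on the plus strand from 12987317 to 12994199. The nearest protein-coding gene on the bait side is Mycn, a transcription factor of the MYC family, 52.14 kb away.

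The DMSO libraries held 17288 and 37027 junctions, and the ART558 libraries 9677, 7151 and 8830. All 5 were read in 1 sequencing run. The DMSO libraries shared 5554 joints with the same bait end and prey position, 36.0% of the joints of replicate 1 and 17.5% of those of replicate 2, while ART558 libraries shared 6.68% to 9.12% of their joints with each other and 10.4% to 16.5% with a DMSO library. These shares depend on library size, with 15417 and 31671 joints in DMSO and 6736 to 9194 in ART558. Among junctions away from the break, any pair of libraries shared 0.191% to 0.932% of joints, so that the overlap lies at the break itself. Of the ART558 joints that delete 200 bp to 10 kb, 45.5% to 47.5% were also listed in a DMSO library. Library values of the groups were set against each other with an exact permutation test, two-sided throughout. With 3 libraries against 2 there are 10 regroupings and no p below 0.2 can be reached, so that p is 0.2 wherever the groups did not overlap and is given below only where they did.

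The main result was a change in composition, with a higher share of junctions on other chromosomes and a lower share within 1 Mb of the break. Junctions to other chromosomes made up 18.9% and 14.8% of the DMSO libraries, against 52.4%, 49.4% and 52.3% of the ART558 libraries. The groups stood far apart, with means of 16.8% ± 2.88 (SD, n = 2) and 51.4% ± 1.72 (SD, n = 3), a 3.05-fold higher share under ART558. Junctions on chromosome 12 more than 1 Mb from the cut rose less, from 2.26% and 2.03% to 3.15%, 3.26% and 3.39%. Together these are called distant junctions, and chromosome 12 supplied 10.7% and 12.1% of them in DMSO and 5.67%, 6.19% and 6.09% in ART558. A distant junction under ART558 was thus less often on the bait chromosome, with no overlap between groups.

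**Figure D1:**
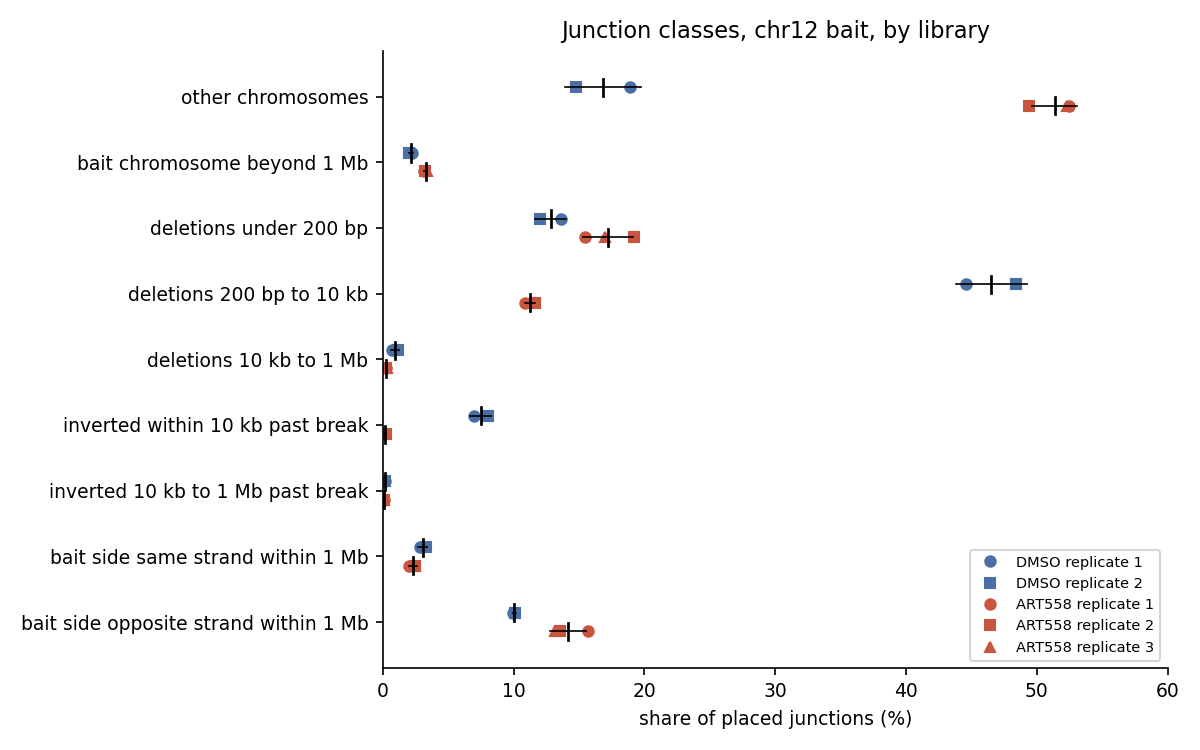
Percent of each library's placed junctions in the 9 classes of prey position, with 1 point per library (2 DMSO in blue, 3 ART558 in red), vertical ticks at the group means and horizontal lines for 1 SD. Junctions to other chromosomes sit at 49.4% to 52.4% in ART558 and at 14.8% to 18.9% in DMSO, while deletions of 200 bp to 10 kb and inverted junctions lie lower in ART558.

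Deletions are junctions in which the prey lies past the cut and reads in the bait's own direction, so that the sequence between was lost. Those with the prey 200 bp to 10 kb past the cut were the commonest class in DMSO, with 44.6% and 48.4% of junctions, and fell to 10.9%, 11.6% and 11.3% in ART558. The means were 46.5% ± 2.71 (SD, n = 2) and 11.3% ± 0.368 (SD, n = 3), and no library of one group came near the other. Deletions of 10 kb to 1 Mb were rare throughout and likewise lower, at 0.732% and 1.14% in DMSO and 0.269%, 0.224% and 0.295% in ART558. Deletions with the prey within 200 bp behaved otherwise, with 13.7% and 11.99% in DMSO and 15.4%, 19.2% and 16.9% in ART558. Their share was higher in every ART558 library than in either DMSO library.

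The distance to the prey shows where this change set in. The median prey distance of deletions up to 10 kb was 797 and 937 bp in DMSO and 80, 67 and 72 bp in ART558. Preys 21 to 60 bp past the cut took 2.35% and 1.86% of junctions in DMSO and 6.49%, 7.74% and 7.01% in ART558. Preys from 61 bp to just under 200 bp past it took 6.53% and 6.22% against 3.78%, 4.42% and 3.85%. As shares of all junctions, the zones up to 60 bp were thus higher in ART558 and those beyond lower. As a share of junctions within 1 Mb, the zone from 61 bp on was instead higher in ART558, at 8.51%, 9.34% and 8.68% against 8.28% and 7.48%, so that the point where the direction turns depends on the total. From 200 to 1000 bp the shares of all junctions were 19.4% and 19.5% in DMSO and 3.89%, 4.53% and 4.23% in ART558, and lower within 1 Mb as well, at 24.6% and 23.4% against 8.75%, 9.57% and 9.55%.

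**Figure D2:**
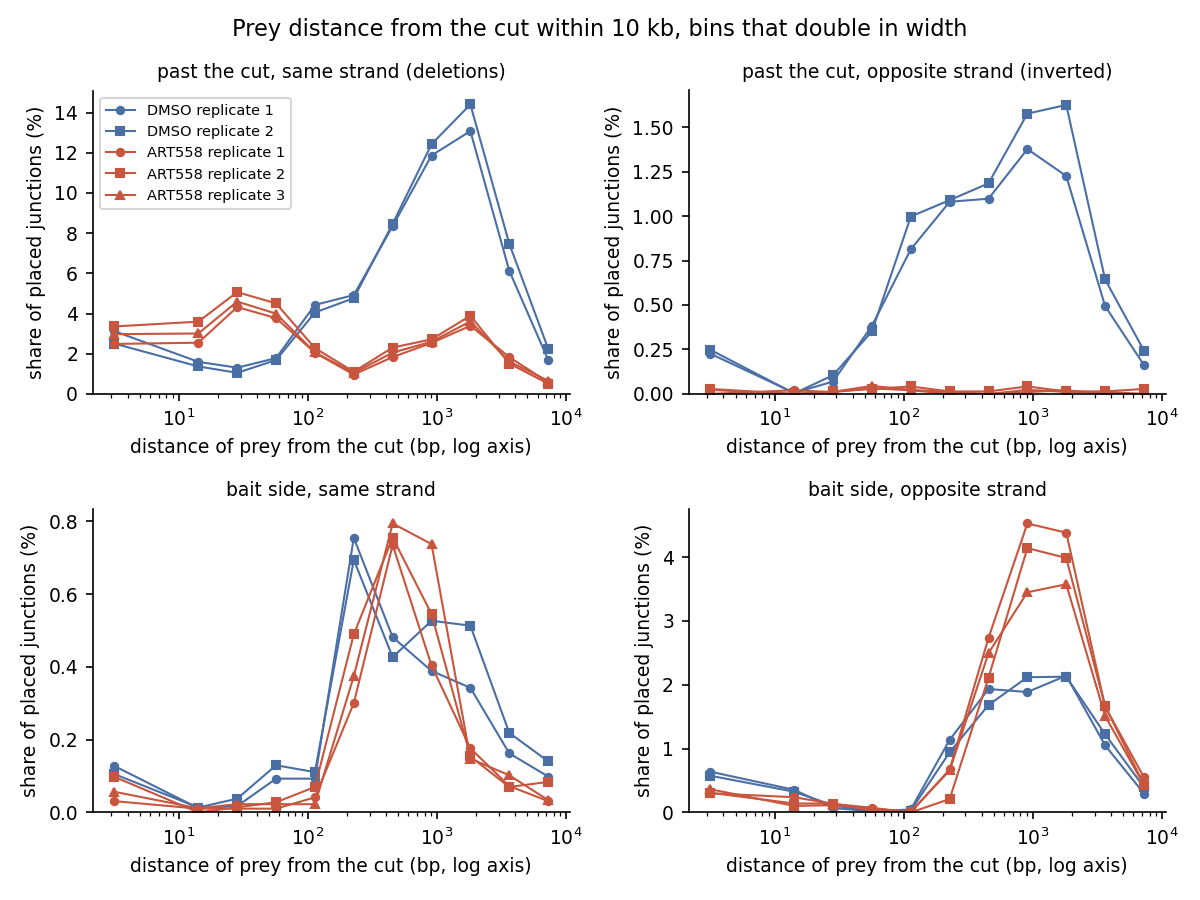
Percent of placed junctions by distance of the prey from the cut, in bins that double in width on a log axis, with 1 line per library (DMSO blue, ART558 red) and a panel for each side of the cut and prey strand; the vertical scales differ between panels. Past the cut on the same strand the ART558 lines lie above DMSO from 21 to 60 bp and below it from 200 bp on, and on the opposite strand they lie close to 0.

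Inverted junctions, in which the prey lies within 10 kb past the cut but reads toward it, showed the largest ratio of all classes. They made up 1194 and 2984 junctions in DMSO, which is 6.93% and 8.07%. In ART558 they were 11, 17 and 14 junctions, which is 0.114%, 0.238% and 0.159%. The highest ART558 library had a 95% Wilson interval of 0.149% to 0.381%, which covers counting error only, and the lowest DMSO library one of 6.56% to 7.32%. The mean share was 44.0-fold lower with ART558. Over 200 bp to 10 kb alone, there were 11.4 and 12.5 inverted junctions per 100 deletions in DMSO and 0.285, 1.08 and 0.403 in ART558, the latter from 3, 9 and 4 junctions. Over these distances the inverted junctions were thus lower relative to the deletions as well. Of the 11, 17 and 14 inverted joints in ART558, 2, 7 and 5 were also listed in a DMSO library.

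On the bait side of the cut the classes moved in opposite directions. Junctions whose prey reads opposite to the bait, the arrangement that arises when bait-side ends are joined to each other, made up 9.96% and 10.1% in DMSO and 15.7%, 13.5% and 13.2% in ART558. Those that read in the bait's own direction made up 2.80% and 3.27% against 1.97%, 2.49% and 2.43%. The former were higher and the latter lower in every ART558 library. In the former the lower quartile of prey distance moved outward, from 348 and 410 bp in DMSO to 597, 715 and 558 bp in ART558.

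Since shares depend on one another, the classes within 1 Mb were also set against their own total. On that scale deletions of 200 bp to 10 kb were 2.31-fold lower with ART558, inverted junctions 24.8-fold lower, and bait-side junctions on the opposite strand 2.52-fold higher. Bait-side junctions on the same strand, lower as a share of all junctions, were 1.31 percentage points higher as a share of those within 1 Mb. Set against all junctions more than 10 kb from the cut, junctions to other chromosomes were 1.15-fold higher.

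Micro-homology, the number of bases that bait and prey share at the joint, was lower at distant junctions with ART558. Counted over joints with 0 to 10 bp, its mean was 2.42 and 2.42 bp in DMSO and 1.86, 1.77 and 1.76 bp in ART558. Direct joints, with neither micro-homology nor an insertion, made up 25.5% and 22.1% of these joints in DMSO and 35.8%, 37.7% and 38.2% in ART558. The groups did not overlap, with means of 23.8% ± 2.39 (SD, n = 2) and 37.3% ± 1.25 (SD, n = 3). Joints with 1 bp rose too, from 16.4% and 16.1% to 19.8%, 20.8% and 20.5%. Joints with 2 to 4 bp took the corresponding loss, at 42.7% and 47.7% in DMSO and 32.3%, 30.3% and 30.4% in ART558. Joints with 5 to 10 bp were lower as well, at 15.3% and 14.1% against 12.03%, 11.2% and 10.9%. Longer micro-homology is left out of these shares. Over all junctions of a library, joints with more than 10 bp were higher with ART558, at 1.27% and 0.975% against 2.58%, 1.55% and 2.49%.

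Deletions of 200 bp to 10 kb went the other way. Their mean micro-homology was 2.13 and 1.93 bp in DMSO and 2.82, 2.84 and 2.75 bp in ART558. Direct joints did not separate the groups there, with 12.04% and 15.8% in DMSO and 10.4%, 9.40% and 12.5% in ART558 (exact permutation p = 0.4). The change lay among the joints with micro-homology. Those with 2 bp fell from 33.5% and 30.8% to 23.0%, 22.9% and 22.0%, while those with 5 bp were 3.13% and 2.66% in DMSO and 9.20%, 8.38% and 9.30% in ART558. Long micro-homology thus took a larger part of this class in ART558, in which the class itself was smaller.

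**Figure D3:**
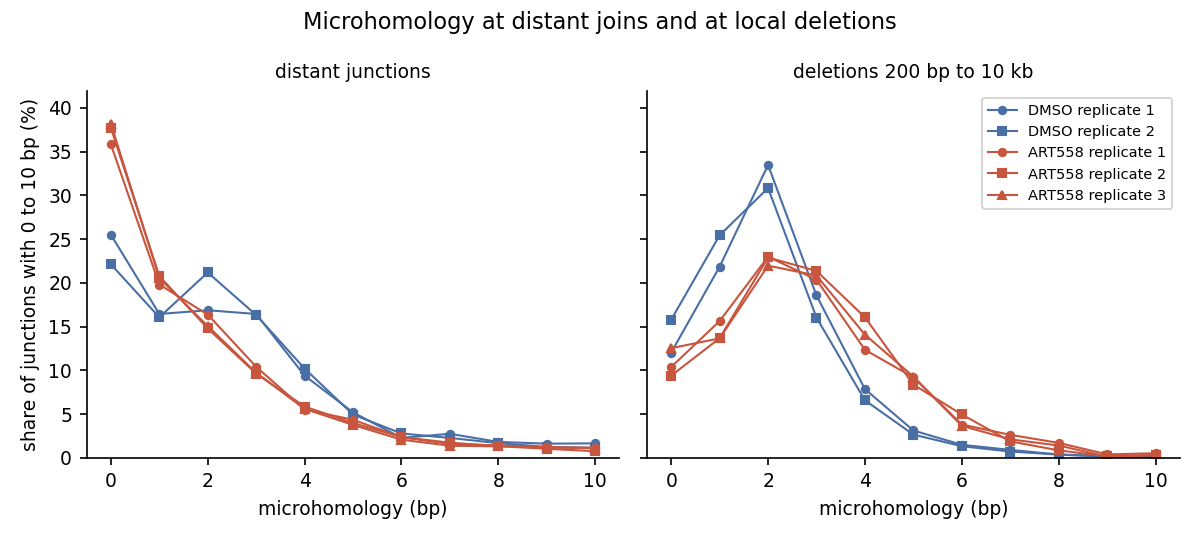
Percent of joints with each length of micro-homology from 0 to 10 bp, for distant junctions (left) and for deletions of 200 bp to 10 kb (right), with 1 line per library (DMSO blue, ART558 red). In ART558 the distant junctions lie higher at 0 bp (35.8% to 38.2% against 22.1% to 25.5%), and the deletions lie higher at 5 bp (8.38% to 9.30% against 2.66% to 3.13%).

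The opposite changes can be seen within each library. Mean micro-homology of these deletions minus that of distant junctions was -0.290 and -0.488 bp in DMSO and 0.956, 1.08 and 0.993 bp in ART558. Every DMSO library had less micro-homology in the deletions and every ART558 library more. Bait-side junctions on the opposite strand had 2.31 and 2.23 bp in DMSO and 2.51, 2.61 and 2.57 bp in ART558. In bait-side junctions on the same strand, direct joints changed in the same direction as at distant ones. They made up 18.8% and 15.5% in DMSO, below both distant values, and 37.9%, 46.3% and 40% in ART558. Recurrence moves with these values. Of the ART558 deletions of 200 bp to 10 kb, joints also listed in a DMSO library averaged 3.22, 3.22 and 3.28 bp, and the others 2.01, 2.06 and 1.82 bp. Its part in the difference was not tested.

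Deletions under 200 bp let the joints be read against the sequence. Their mean micro-homology was 1.70 and 1.51 bp in DMSO and 1.78, 1.86 and 1.89 bp in ART558, and their direct joints overlapped between groups, at 18.5% and 24.0% against 23.2%, 18.5% and 18.0% (exact permutation p = 0.6). Among the pairs of bait end and prey position that recurred most in each group, these 4 joints are shown because they differ in the length of the shared bases, which are in capitals between 14 bases of bait and 14 of prey.
2 bp: attgctcacattccGCagcactatgaccat
3 bp: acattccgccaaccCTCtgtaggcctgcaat
5 bp: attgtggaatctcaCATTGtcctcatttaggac
6 bp: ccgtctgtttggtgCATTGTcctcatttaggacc
The joint with 2 bp deletes 17 bases and was read 4 and 4 times in DMSO and 1, 2 and 2 times in ART558. The joint with 3 bp, 2 bases from the cut on the bait side, deletes 151 bases and was read 3 and 3 times in DMSO and 1, 0 and 0 times in ART558. The joints with 5 and 6 bp join separate stretches of the bait to the same prey position, 19 bases past the cut, and delete 45 and 60 bases. The former was read 3 and 6 times in DMSO and 3, 4 and 5 times in ART558, and the latter 3 and 6 times against 2, 2 and 7. These counts are of reads with exactly the joint shown, in libraries of unlike size, so they are not shares. Further reads had the same bait end and prey position with other bases between them. With these included, the 2 bp pair held 0.0406% and 0.0216% of placed junctions in DMSO and 0.0104%, 0.0420% and 0.0341% in ART558. The 3 bp pair held 0.0348% and 0.0135% against 0.0104%, 0% and 0%. The 5 bp pair held 0.0174% and 0.0162% against 0.0311%, 0.0560% and 0.0681%, and the 6 bp pair 0.0174% and 0.0216% against 0.0207%, 0.0420% and 0.0908%. The pairs were picked for recurring in a group, so these shares are descriptions.

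The motifs used at distant junctions are given as descriptions. Among joints with 4 bp, CCTC, which ends 2 bases from the cut, made up 5.28% and 9.73% in DMSO and 0%, 1.04% and 1.70% in ART558, where the value of 0 came from 249 joints and allows up to 3. Among joints with 3 bp, CTC, found there and further inside the bait, made up 7.24% and 7.995% against 1.49%, 1.26% and 1.47%. Among joints with 2 bp, GG made up 5.10% and 6.53% in DMSO and 11.7%, 14.2% and 13.9% in ART558. The motif beside the cut was therefore less used in every ART558 library than in either DMSO library.

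Insertions are bases of the read between the aligned bait and the aligned prey, and the longest listed were of 30 bp. At distant junctions insertions of 1 to 9 bp made up 7.31% and 7.997% in DMSO and 6.06%, 5.45% and 4.57% in ART558, without overlap. Those of 10 bp and more overlapped between groups, with 4.18% and 4.34% in DMSO and 5.39%, 4.25% and 5.48% in ART558 (exact permutation p = 0.4). Deletions under 200 bp carried insertions far more often, in 31.4% and 35.6% of DMSO and 48.0%, 44.3% and 44.1% of ART558 junctions. There, insertions of 1 to 3 bp overlapped, with 19.99% and 20.8% against 22.3%, 19.0% and 18.8%. Those of 4 to 9 bp stood apart, with 6.76% and 8.03% in DMSO and 14.1%, 14.1% and 14.3% in ART558. Those of 10 to 30 bp took 4.64% and 6.83% against 11.6%, 11.2% and 11.1%. The higher insertion share under ART558 thus lay in the longer insertions.

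The origin of insertions of at least 10 bp was looked up by exact match to the sequence within 600 bp of the cut on either strand, a measure added after the data were seen. A match was found for 242 of 687 and 602 of 1668 insertions in DMSO, which is 35.2% and 36.1%. In ART558 it was found for 33 of 681, 33 of 479 and 50 of 639, which is 4.85%, 6.89% and 7.82%. Matches to 2 windows of the same length 100 kb away were 0.220% or less on average in every library. The difference was largest for copies in inverted orientation, which made up 24.0% and 24.9% of these insertions in DMSO and 1.76%, 1.46% and 2.19% in ART558. Copies in the same orientation made up 11.2% and 11.2% against 3.08%, 5.43% and 5.63%. Neither kind overlapped between the groups.

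The copies are shown in 4 joints, with the inserted bases in capitals between 12 bases of bait and 12 of prey. The first and second are inverted copies from DMSO replicates 1 and 2, the third is an inverted copy from ART558 replicate 1 and the fourth a same-strand copy from ART558 replicate 3.
DMSO, deletion under 200 bp: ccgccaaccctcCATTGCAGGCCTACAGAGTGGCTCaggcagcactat
DMSO, deletion under 200 bp: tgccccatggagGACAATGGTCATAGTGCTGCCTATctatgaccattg
ART558, deletion of 200 bp to 10 kb: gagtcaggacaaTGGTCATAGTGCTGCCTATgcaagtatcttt
ART558, deletion under 200 bp: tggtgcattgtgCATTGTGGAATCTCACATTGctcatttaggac
The first insertion of 24 bp matches chr12:12994195-12994218, and the second, also of 24 bp, matches chr12:12994056-12994079. The third, of 19 bp, matches chr12:12994056-12994074, inside the template of the second. The fourth, of 20 bp, matches the bait itself at chr12:12994013-12994032.

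Classes differed in how much they used such copies. On the bait side, opposite strand, 52.5% and 49.0% of the long insertions matched in DMSO and 5.19%, 9.52% and 8.11% in ART558. In deletions of 200 bp to 10 kb the values were 39.0% and 42.6% against 5.63%, 2.99% and 12.7%, and at distant junctions 17.1% and 21.9% against 3.11%, 4.38% and 2.60%. Deletions under 200 bp were the exception in 1 orientation. Their inverted copies fell from 30.3% and 23.1% to 2.33%, 1.299% and 1.82%, whereas same-strand copies were 4.59% and 4.62% in DMSO and 4.65%, 7.79% and 13.3% in ART558. As a share of all junctions, matched insertions were 1.41% and 1.63% in DMSO and 0.342%, 0.462% and 0.568% in ART558. Long insertions without a match were 2.58% and 2.88% against 6.72%, 6.24% and 6.69%. Long insertions were thus no rarer in ART558, but few of them matched the break region.

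**Figure D4:**
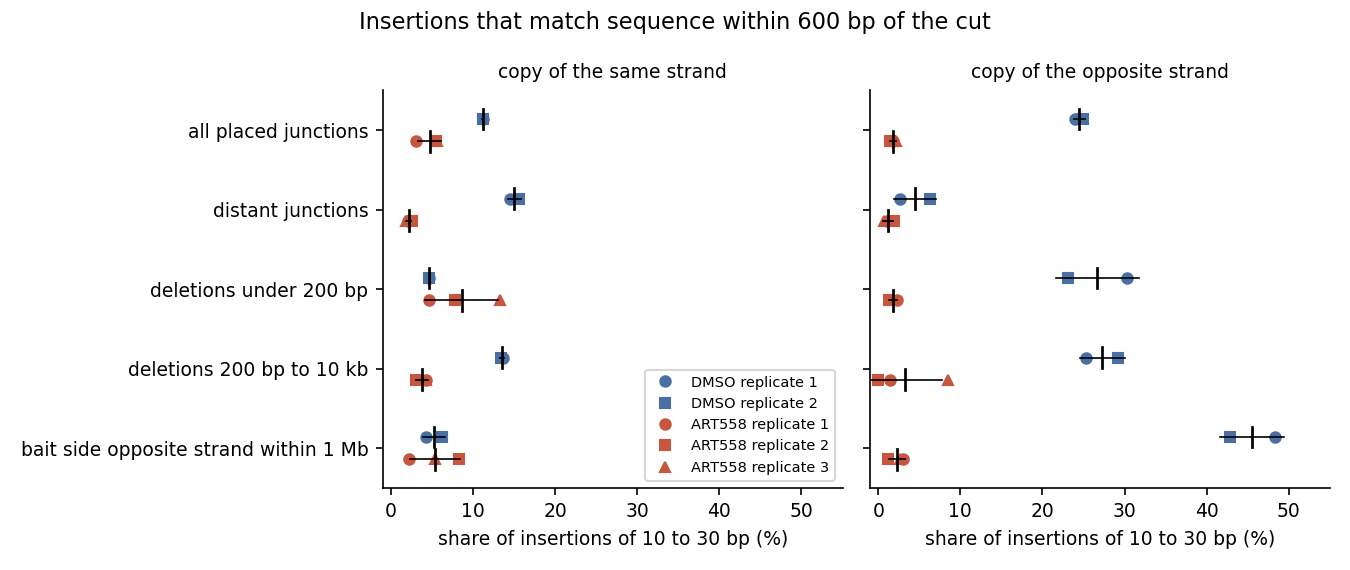
Percent of insertions of 10 to 30 bp that match the sequence within 600 bp of the cut, as same-strand copies (left) and opposite-strand copies (right), for all junctions and 4 classes, with 1 point per library, ticks at the means and lines for 1 SD. Over all junctions opposite-strand copies lie at 24.0% and 24.9% in the DMSO libraries and at 1.46% to 2.19% in the ART558 libraries.

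Single-base insertions at distant junctions were few, at 72 and 132 in DMSO and 70, 44 and 43 in ART558. An A was inserted in 30.6% and 30.3% of them in DMSO and in 48.6%, 45.5% and 37.2% in ART558. A G was inserted in 29.2% and 30.3% against 15.7%, 13.6% and 25.6%. The shares of C and T overlapped between the groups there. In deletions of 200 bp to 10 kb, and in those under 200 bp, only the share of C did not overlap. In deletions under 200 bp the share of A overlapped between the groups, at 26.7% and 28.7% against 29.0%, 23.6% and 31.7% (exact permutation p = 1).

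Bait-end loss, the number of bases between the cut and the last bait base kept, was higher with ART558 in the classes described here. At distant junctions its mean was 43.1 and 39.5 bp in DMSO and 55.1, 56.1 and 56.9 bp in ART558. Bait ends that had lost at most 5 bp made up 13.96% and 18.0% in DMSO and 4.48%, 6.17% and 4.71% in ART558. This range includes ends that run past the cut. Ends that had lost over 50 bp made up 41.98% and 37.8% against 55.5%, 57.7% and 57.8%. The ends closest to the cut thus fell and the long losses rose, without overlap. The primer lies within the bait, so longer losses cannot be recovered.

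Closer to the break the loss was smaller but moved alike. Deletions of 200 bp to 10 kb lost 18.0 and 19.3 bp in DMSO and 26.6, 25.3 and 27.7 bp in ART558. Deletions under 200 bp lost 31.1 and 31.4 bp against 33.9, 34.9 and 34.7 bp, the smallest change. Bait-side junctions on the opposite strand lost 21.6 and 20.9 bp against 35.9, 34.3 and 33.9 bp. The few inverted junctions lost 16.7 and 18.1 bp in DMSO and 40.9, 43.8 and 39.3 bp in ART558.

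**Figure D5:**
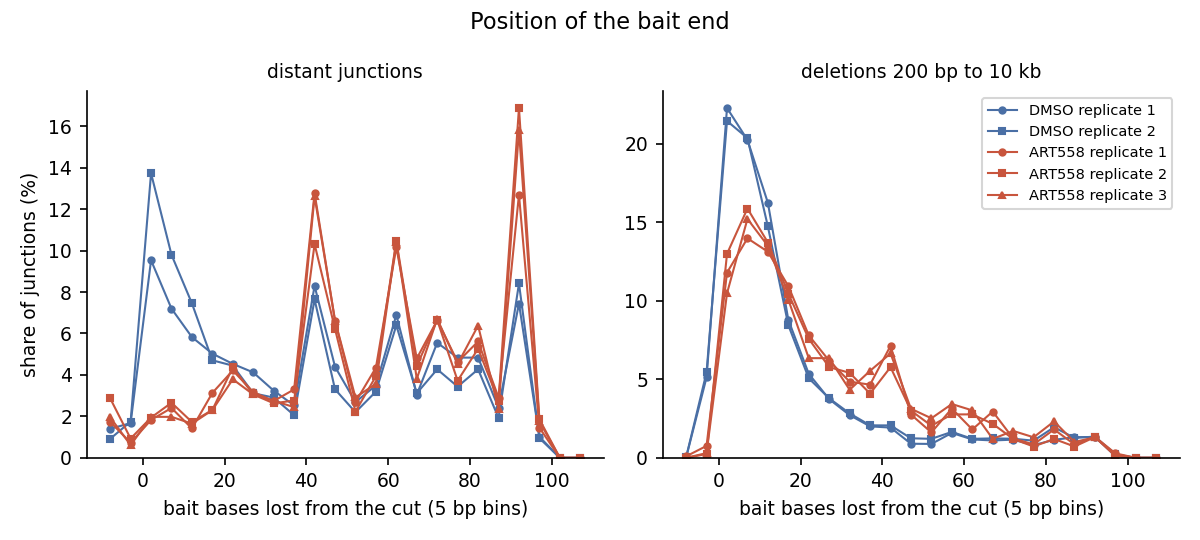
Percent of junctions by the number of bait bases lost from the cut, in bins of 5 bp, for distant junctions (left) and deletions of 200 bp to 10 kb (right), with 1 line per library (DMSO blue, ART558 red). At distant junctions the DMSO lines peak beside the cut, where the ART558 lines are low, and the lines of both groups share peaks at inner positions that stand higher in ART558.

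Some bait ends recurred at distant junctions, and 3 are shown, with the last 10 bases kept in capitals and the next 10 of the genome, which the joint does not hold, in lower case. For the end with 2 bases lost, the lower-case bases after the first 2 lie past the cut.
2 lost: GCCAACCCTCgagataggca
43 lost: TCTGTTTGGTgcattgtgga
93 lost: CTCAAGAGGGgactgctgct
The end with 2 bases lost made up 3.85% and 4.77% of distant junctions in DMSO and 0.466%, 0.346% and 0.530% in ART558. The end with 43 lost made up 4.64% and 4.03% against 6.88%, 5.87% and 7.03%, and the end with 93 lost 3.90% and 4.61% against 6.83%, 8.80% and 8.19%. Of these 3 ends, the one beside the cut was lower and the inner ones were higher in every ART558 library. A further inner end, with 70 lost, overlapped between the groups, at 2.94% and 1.77% in DMSO and 2.98%, 3.03% and 2.75% in ART558 (exact permutation p = 0.4). At 4 inner ends chosen after their values were seen (43, 60, 70 and 93 bases lost, without the end with 92 lost described below), direct joints made up 60.4% and 55.5% in DMSO and 60.2%, 64.6% and 60.5% in ART558 (exact permutation p = 0.4). The neighbouring end with 92 lost held 1.46% and 1.48% of distant junctions in DMSO and 2.67%, 3.14% and 3.32% in ART558, and its direct joints were 24.5% and 11.6% against 18.1%, 21.1% and 16.6%. The 4 ends held 14.8% and 13.3% of distant junctions in DMSO and 21.8%, 22.5% and 23.3% in ART558. With them left out, direct joints remained apart at 18.9% and 16.3% in DMSO and 28.3%, 29.2% and 30.7% in ART558, and mean loss at 39.2 and 35.1 bp against 52.0, 52.2 and 53.6 bp.

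Direct joining was higher with ART558 at every range of bait-end loss. Among ends with up to 10 bp lost it was 14.5% and 12.3% in DMSO and 28.2%, 36.6% and 34.0% in ART558. This range includes bait ends that run past the cut, which made up 14.6% and 9.62% of it in DMSO and 35.1%, 43.2% and 36.3% in ART558. Without them it was 12.55% and 10.6% against 26.1%, 32.6% and 32.7%. Among ends with 51 to 70 bp lost it was 26.8% and 25.1% against 29.5%, 30.5% and 33.0%. The groups did not overlap in any of the 5 ranges.

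Beyond the lower share of chromosome 12 given above, the location of distant preys was compared by region. Recurrent DNA break clusters (RDCs) are regions, mostly long neural genes, where breaks recur under replication stress. Junction density is given per 1000 junctions on other chromosomes per Mb, in windows of 1 Mb at the listed positions. At the 39 RDCs in late constant-timing regions it was 0.371 and 0.346 in DMSO and 0.304, 0.509 and 0.417 in ART558 (exact permutation p = 0.6). At the 64 RDCs in timing-transition regions it was 0.495 and 0.437 against 0.513, 0.456 and 0.512 (exact permutation p = 0.4). Both sets overlapped between the groups, and none of these cells had been given aphidicolin. Outside all RDC windows the density was 0.381 and 0.383 in DMSO and 0.382, 0.380 and 0.380 in ART558.

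The 8 RDCs of highest mean density held 16 to 24 junctions each over all 5 libraries. Ctnna2, which encodes an alpha-catenin of neurons, had 0 and 10 junctions in DMSO and 2, 3 and 9 in ART558. Grip1, a scaffold of glutamate receptors, had 3 and 4 against 5, 6 and 1, and Sox5, a transcription factor, had 7 and 1 against 4, 2 and 2. As densities, these 3 and Cdkal1, Csmd2 and Prkce overlapped between the groups, and no difference was detectable at this depth. Grid1, a glutamate receptor of the delta family, had densities of 0.923 and 1.28 in DMSO and 0.791, 0.850 and 0.217 in ART558. Dab1, an adaptor of reelin signalling, had 0.615 and 0.548 against 0.791, 1.13 and 0.868. The groups did not overlap at these 2 RDCs, which rest on 18 and 17 junctions, nor at 18.4% of all 103 RDC windows (19), so that 2 of 8 is near the background.

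Across the genome, none of 500 bins of 5 Mb was called at a Benjamini-Hochberg adjusted p of 0.05 by limma, so that percent called was 0. At an unadjusted p under 0.05 there were 21, and limma with voom weights also called 0, which does not show that no bin differed. Protein-coding gene bodies held 46.8% and 47.0% of junctions on other chromosomes in DMSO and 47.6%, 47.0% and 46.7% in ART558 (exact permutation p = 0.6). They cover 38.4% of the sequence of the chromosomes other than 12. On other chromosomes preys on the plus strand made up 50.4% and 49.9% in DMSO and 47.7%, 46.8% and 48.1% in ART558, which did not overlap.

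Protein-coding genes around the break were reached by few junctions, given here per 1000 junctions of the library. Mycn held 0.174 and 0.162 in DMSO and 0, 0 and 0.114 in ART558, which is 3 and 6 junctions against 0, 0 and 1. Past the cut, Ddx1, an RNA helicase gene 222.919 kb away, held 1 and 5 junctions against 0, 0 and 0, a count that allows up to 3 junctions in each ART558 library. Nbas, which encodes a protein of vesicle transport, held 0.639 and 0.730 per 1000 against 0.207, 0.700 and 0.227, which overlap (exact permutation p = 0.4). Fam49a on the bait side held 0.174 and 0.270 in DMSO and 0.415, 0.280 and 0.681 in ART558, which is 3 and 10 junctions against 4, 2 and 6. The groups were separated there only by 0.280 against 0.270, the former from 2 junctions. All these values rest on 27 junctions or fewer per library.

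The same contrast was made in this line with a bait on chromosome 6, in another sequencing run, with 2 DMSO and 3 ART558 libraries. Averaged over both baits, with labels permuted within each bait, 100 regroupings allow p values down to 0.02. These averages were added after the data were seen. A first family of 16 measures was chosen with their values known, and the average was then also taken for 29 measures of the design, which leave out prey densities and gene bodies. Direct joining of distant junctions was 13.8 percentage points higher with ART558 and bait loss 11.2 bp higher. Junctions to other chromosomes were 29.7 points higher, and inverted junctions fell by 5.84 points. Long insertions matching the break region fell by 27.5 points. Each of these had an exact permutation p of 0.02, the smallest possible, with the same sign at both baits and no overlap between groups at either. The Benjamini-Hochberg adjusted p was 0.0213 over the 16, which does not correct for their choice with values known. All but the insertion measure were also among the 29, where the adjusted p was 0.0322. Of the 29 measures, 25 had groups that did not overlap at chromosome 12, and 18 of these were also apart in the same direction at chromosome 6. The average had the smallest p for 18 of the 29 (adjusted p = 0.0322 over the 29). The other 7 of the 25 overlapped at chromosome 6. The share of bait-side junctions on the opposite strand was one, with an average difference of 2.86 points (exact permutation p = 0.3). At the chromosome 6 bait this share was 11.5% and 13.2% in DMSO and 17.1%, 6.09% and 18.7% in ART558. Distant junctions with 5 to 10 bp of micro-homology were 12.995% and 13.3% there against 13.4%, 8.50% and 10.01%. Those with at most 5 bait bases lost, ends past the cut included, were 43.6% and 37.4% against 31.3%, 42.3% and 29.7%. Insertions in deletions under 200 bp were 48.8% and 45.99% there against 56.2%, 46.4% and 60.5%. The rest were insertions of 1 to 9 bp in distant junctions, junctions on the bait chromosome beyond 1 Mb and the plus-strand share of prey on other chromosomes.

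For these 29 measures the difference between baits was also tested, and no adjusted p was under 0.05, which does not show that the baits act alike. The lowest unadjusted p was for the plus-strand share, whose effect at chromosome 12 minus that at chromosome 6 was -3.66 points (exact permutation p = 0.04, adjusted p = 1). The same difference was -0.731 points for direct joining (exact permutation p = 1), 7.20 bp for bait loss (p = 0.44), 9.65 points for other chromosomes (p = 0.7) and -2.98 points for inverted junctions (p = 0.56). The baits differ in length, with 132 bases from primer start to cut on chromosome 12 and 98 on chromosome 6, of which the primers of 27 and 25 bases must be kept. Distant junctions lost 13.7 and 14.9 bp at the chromosome 6 bait in DMSO and 23.0, 19.5 and 23.1 bp in ART558.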

How the data were processed

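LAM-HTGTS junctions were measured in 5 libraries. In the HTGTS pipeline of the authors, adapters were trimmed, libraries were demultiplexed and reads were aligned with Bowtie2 to mm10/GRCm38. The deposited tables list other quantities than expression values, namely 1 row per junction with genome coordinates and, for bait and prey, the stretch of the read that each covers, not normalized and without molecular identifiers. No depth beyond the junction counts is known, and counting intervals (Wilson, 95%) cover counting error only.

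The cut was located from the guide and its PAM. Junctions were classed by prey position and strand. Unplaced sequences (0.0559% to 0.388%) were left out, and repeats (4.99% to 14.5%) were kept. Micro-homology was read from the overlap of bait and prey in the read, over joints of 0 to 10 bp. RDC positions came from the study's supplement and genes from GENCODE M21. Work was done in Python 3.11.15 with pandas 2.3.3, NumPy 2.4.6, SciPy 1.17.1, pysam 0.24.0 and Matplotlib 3.10.9. Bins of 5 Mb were fitted with limma 3.58.1 (trend, R 4.3.3) on log2 densities with a pseudocount of 0.5 junctions and at least 10 junctions per bin, and tested on simulated data.

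The measures, gene lists and rules were chosen with earlier results of these data known. Named RDCs were those with the highest mean density over libraries. Alternatives were each junction counted once, other totals, windows and length limits, a replicate block, another bait, and each library left out. The chromosome 6 file of ART558 replicate 1 breaks off in mid-line and gave 5075 whole junctions.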

Additional observations from a re-analysis of the deposited data

How the results depend on the processing

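Of 350 alternatives to 37 results, 9 reversed the direction and 3 moved the count of called bins. The side of the threshold says nothing for results at the chromosome 12 bait alone, whose exact tests cannot pass it. The averages over baits are not among the 37. As shares of junctions beyond 10 kb, chromosome 12 beyond 1 Mb turned to -4.41 points, and as a share within 1 Mb, bait-side same-strand junctions turned to 1.31 points. With all annotated genes in place of protein-coding ones, the gene-body difference was -0.657 points. With the chromosome 8 bait, whose DMSO libraries were read in another run and 1 ART558 library of which holds 133 junctions, in place of chromosome 6, the bait-loss difference between baits was -12.6 bp. The cause was not tested. Leaving out 1 library at a time, the difference in direct joining of deletions under 200 bp ran from -4.13 to 1.44 points. In deletions of 200 bp to 10 kb it ran from -5.02 to -1.27 points. The density difference ran from -0.00138 to 0.0571 at RDCs of timing-transition regions and from 0.0022 to 0.104 at those of late constant-timing regions. The gene-body difference ran from 0.0135 to 0.452 points. The chromosome 12 minus chromosome 6 difference ran from -2.75 to 2.36 points in direct joining. In junctions to other chromosomes it ran from 3.88 to 19.2 points. The count of called bins ran from 0 to 1, with chr4:30000001-35000000 called without DMSO replicate 2 and chr17:35000001-40000000 without ART558 replicate 2. Averages over baits without a DMSO library had p of 0.05, the smallest they then allow.

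The labels do not say whether equal replicate numbers mark anything shared. Deviations of same-numbered libraries correlated at 0.169 and 0.355, which settles nothing with 2 DMSO libraries, and they were not taken as pairs. With a replicate block, 36 of these 37 results kept their direction, with exact tests that cannot reach the threshold, and the count of called bins moved. The difference in junctions to other chromosomes was 34.1 points, in direct joining 12.96 points and in bait loss 14.3 bp, and 2 bins were called, on 4 libraries with 1 residual degree of freedom. The averages over both baits kept their direction with the block but lost their call, since 2 pairs per bait cannot reach the threshold.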
